A study of Mus musculus with 11 samples.

Results

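Heat shock protein genes were read in whole-tissue cells of lymph node (LN) and spleen from mice that carry BCL2, an anti-apoptotic oncogene, in either of 2 B cell contexts, and from wild-type mice. The members were the 9 rows of the table with the symbols Hspa1a, Hspa1b, Hspa8, Hsph1, Dnajb1, Hsp90aa1, Hsp90ab1, Hspd1 and Hspe1. All 9 were found among the 10885 genes of the table, and each was read in all 11 libraries. KI denotes knock-in mice labelled Igk-BCL2 (mice 5 and 6), Tg denotes transgenic mice labelled 3'RR-BCL2 (mice 3 and 4), and Wt denotes wild-type mice (mice 1 and 2). The labels name the immunoglobulin kappa locus and the 3' regulatory region as the settings of BCL2, and the series title calls both contexts B cell specific. All 6 mice were injected intraperitoneally with sheep red blood cells in 3 immunisations over 3 months, and tissue was taken 1 month after the last. Each mouse gave an LN and a spleen library, except mouse 3, of which the LN alone was analysed here. Spleen Tg therefore held 1 library and the other 5 groups of tissue and genotype held 2. The labels give neither age nor sex. They say that RNA came from dissociated cells, so the tissue had been taken apart before extraction.

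Heat shock proteins are chaperones: they bind unfolded or partly folded proteins, keep them from aggregating and help them fold. When unfolded protein accumulates, through heat, toxic agents or rough handling of cells, the transcription factor HSF1 is released from chaperone binding, forms trimers and switches on the inducible genes within minutes. HSF1 binds heat shock elements, which are runs of the unit nGAAn in alternating orientation. Hspa1a and Hspa1b encode the inducible HSP70, which has little basal expression in many cells, whereas Hspa8 encodes HSC70, the constitutive form. Dnajb1 encodes HSP40, a J-domain partner that delivers clients to HSP70 and stimulates its ATPase. Hsph1 encodes HSP110, a nucleotide exchange factor of HSP70. Hsp90aa1 and Hsp90ab1 encode the inducible and the constitutive HSP90. Hspd1 and Hspe1 encode HSP60 and HSP10, which form the folding chamber of the mitochondrial matrix. The heading cytosolic therefore describes 7 of the 9 members, and Hspd1 and Hspe1 are described as mitochondrial chaperonins.

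Sequences before the start sites are shown for the members whose signal moved most between libraries and for the pair that shares 1 promoter, since heat shock elements are the known route of their shared control. They are from RefSeq on GRCm38.p6, which is not the build named for the deposited values, and 6 of the 9 members had an entry. The windows were searched on both strands for 2 neighbouring units (GAANNTTC or TTCNNGAA) and for 3 (GAANNTTCNNGAA or TTCNNGAANNTTC); a run of 3 contains both patterns of 2. Capitals mark the match. The 250 bases before the starts of Hspa1a (chr17:34972157-34972406, minus strand) and Hspa1b (chr17:34959239-34959488, minus strand) differed by 3 substitutions, and each held 1 match of 2 units that began 104 bases before the start.
Hspa1a: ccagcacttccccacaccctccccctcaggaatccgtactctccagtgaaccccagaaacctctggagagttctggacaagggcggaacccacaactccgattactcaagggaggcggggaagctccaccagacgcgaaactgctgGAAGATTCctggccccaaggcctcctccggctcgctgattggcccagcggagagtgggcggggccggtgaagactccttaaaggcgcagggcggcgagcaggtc
Hspa1b: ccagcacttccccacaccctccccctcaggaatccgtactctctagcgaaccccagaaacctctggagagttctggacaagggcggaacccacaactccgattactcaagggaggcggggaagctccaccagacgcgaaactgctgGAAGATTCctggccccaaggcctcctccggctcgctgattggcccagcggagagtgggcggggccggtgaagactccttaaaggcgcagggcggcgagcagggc

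Hspe1 and Hspd1 lie head to head, and 1 stretch between them (chr1:55088053-55088082, plus strand) held an unbroken run in which both patterns of 3 units overlapped. The run began 89 bases before the start of Hspe1, and it lay before 1 of the 2 annotated starts of Hspd1. Hsph1 held a match of 2 units that began 54 bases before 1 of its 2 starts and 33 bases before the other (within chr5:149636351-149636380, minus strand), and a match of 3 units that began 15 or 36 bases after these starts. Neither entry of Dnajb1 held a match.
Hspe1 and Hspd1: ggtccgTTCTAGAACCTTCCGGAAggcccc
Hsph1: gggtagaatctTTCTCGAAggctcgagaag
Over 32851 windows of 250 bases before a RefSeq start, 12.8% held a match of 2 units and 0.466% a match of 3. A match describes these letters only.

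The libraries held between 11128568 and 24110325 reads over the genes of the table. The values are the authors' normalised signal, read counts divided by 1 factor per library and not by gene length, so levels are compared here between libraries and not between genes. Bcl2, read by the mouse gene, had a signal of 1246 and 1664 in LN KI, 2065 and 3171 in LN Tg, and 2338 and 2716 in LN Wt. In spleen it was 1249 and 1299 in KI, 2109 in Tg, and 2611 and 2427 in Wt; whether reads of the inserted BCL2 fall on this gene was not tested. By Xist and Ddx3y, mouse 1 was female and the other 5 mice were male, so that 1 of the 2 Wt mice differed in sex from all KI and Tg mice. Markers of B cells and T cells were present in all 11 libraries, with sums of 52351 to 127152 over 6 B cell genes and 16364 to 67040 over 8 T cell genes. In whole-tissue RNA, fewer cells of a type and less RNA per cell cannot be told apart.

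The strongest feature of the 9 members was a difference between individual mice. Both libraries of Tg mouse 4 had the 2 highest values of all 11 libraries for each of the 9 genes, and LN of Tg mouse 3 had the lowest value for 7 of the 9. Spleen of KI mouse 6 had the lowest value for the other two, Hsp90aa1 and Hspe1. The 9 genes together took 1.32% of the signal in LN and 1.39% in spleen of Tg mouse 4, against 0.386% in LN of Tg mouse 3 and between 0.409% and 0.749% in the 8 libraries of the KI and Wt mice.

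**Figure D1:**
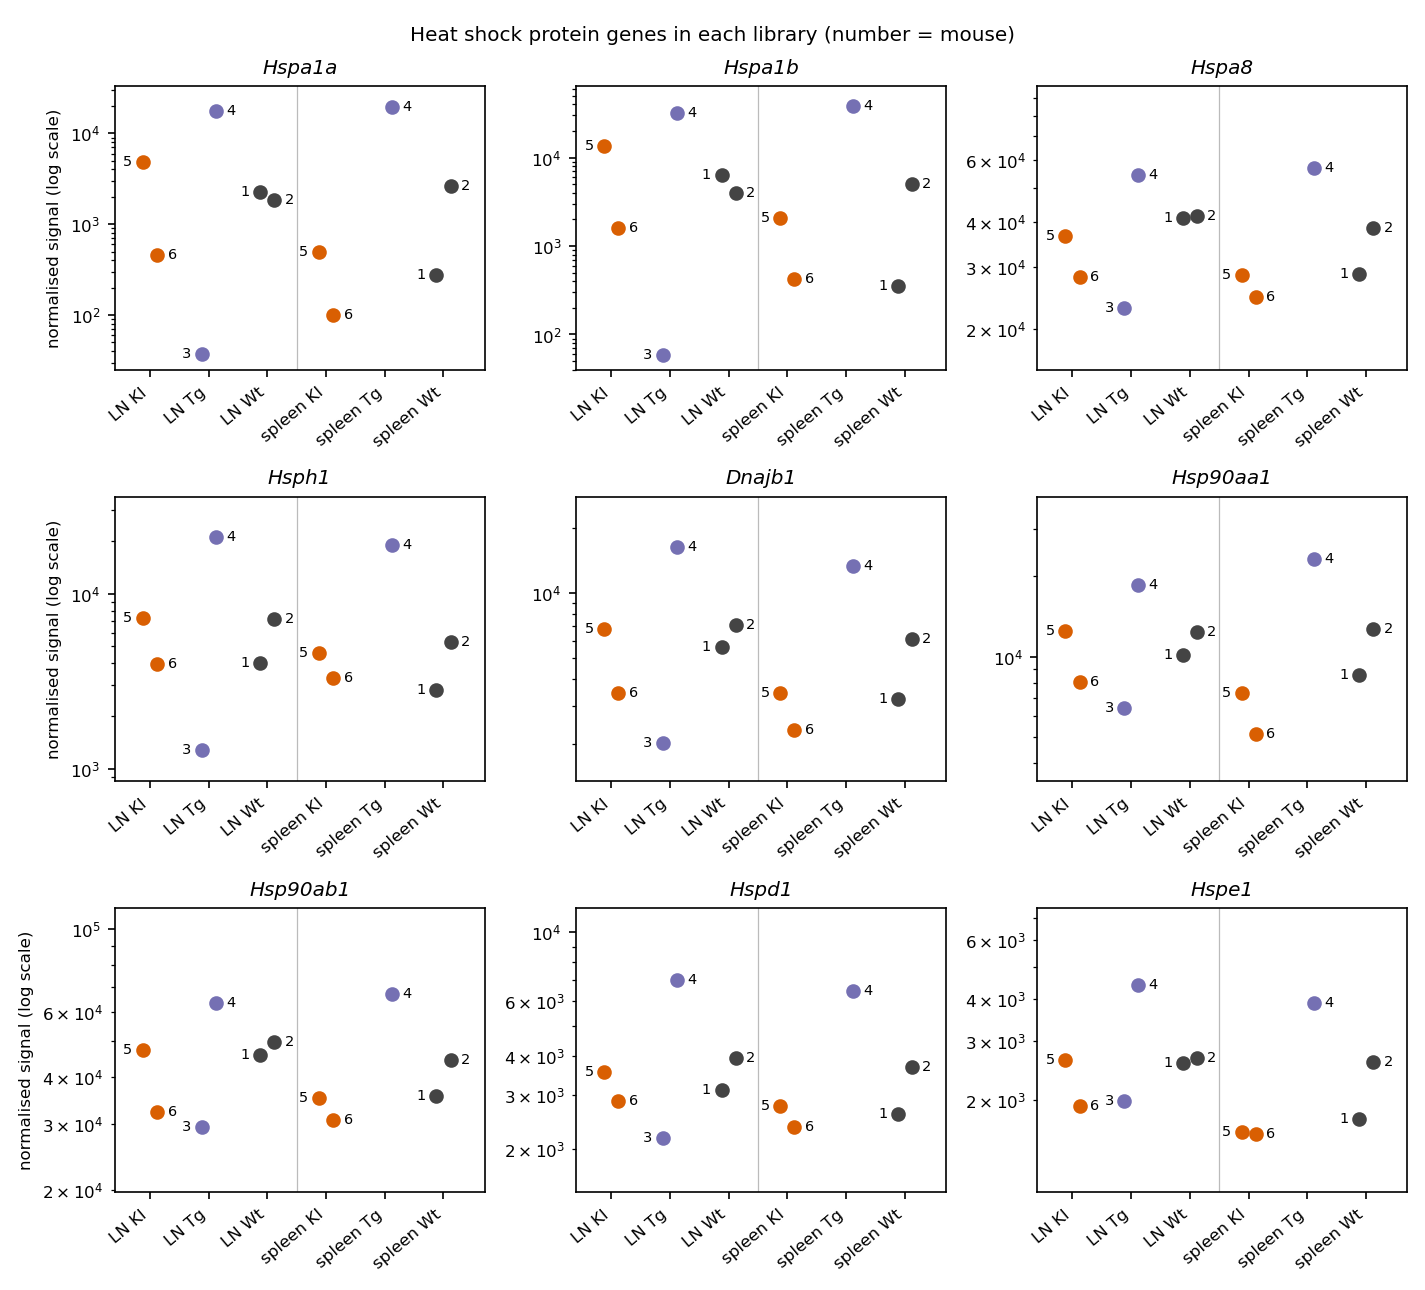
Normalised signal of each of the 9 genes (vertical axis, log scale, a different range in each panel) in the 11 libraries, grouped by tissue and genotype with KI, then Tg, then Wt, and numbered by mouse; each point is 1 library. The 2 points of mouse 4 lie above all others in every panel, and LN of mouse 3 is the lowest point in 7 panels.

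Among the HSP70 genes, inducible Hspa1b (ENSMUSG00000090877) had a signal of 13716 and 1620 in LN KI (mice 5 and 6), 59 and 32268 in LN Tg (mice 3 and 4), and 6418 and 3980 in LN Wt (mice 1 and 2). In spleen, Hspa1b had 2100 and 425 in KI, 38017 in Tg mouse 4, and 352 and 4988 in Wt. The highest library was 639.6 times the lowest, which ranked 30 from the top among the 10770 genes with no value of 0, whose median ratio was 1.66. KI and Wt libraries overlapped in both tissues, and the 2 LN Tg libraries lay on either side of all other LN libraries.

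Inducible Hspa1a (ENSMUSG00000091971) had 4822 and 463 in LN KI, 37 and 17423 in LN Tg, and 2271 and 1833 in LN Wt. In spleen, Hspa1a had 491 and 100 in KI, 19526 in Tg mouse 4, and 279 and 2640 in Wt. The order of libraries was close to that of Hspa1b. The coding sequences of these genes, 1923 bases for Hspa1a and 1926 for Hspa1b in GENCODE M21, were 99.4% identical, and how reads that match both were counted is not given in the sources used here. Their signals may therefore be split in part by the counting, and the ratio of Hspa1b to Hspa1a lay between 1.26 (spleen Wt mouse 1) and 4.28 (spleen KI mouse 5).

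Constitutive Hspa8 (ENSMUSG00000015656) had 36542 and 27969 in LN KI, 22930 and 54325 in LN Tg, and 41034 and 41834 in LN Wt. In spleen, Hspa8 had 28356 and 24558 in KI, 57138 in Tg mouse 4, and 28647 and 38617 in Wt. Its libraries spanned a ratio of 2.49, far narrower than the inducible genes but with the same libraries at the top and bottom. In each tissue both KI libraries lay below both Wt libraries.

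Both HSP70 partners had their lowest value in LN of mouse 3 and their highest in LN of mouse 4. Hsph1 (ENSMUSG00000029657), the nucleotide exchange factor, had 7254 and 3948 in LN KI, 1277 and 20919 in LN Tg, and 4046 and 7198 in LN Wt. In spleen, Hsph1 had 4610 and 3317 in KI, 19027 in Tg mouse 4, and 2813 and 5311 in Wt. KI and Wt overlapped in both tissues. Dnajb1 (ENSMUSG00000005483), the J-domain partner, had 6785 and 3442 in LN KI, 2008 and 16365 in LN Tg, and 5610 and 7113 in LN Wt. In spleen, Dnajb1 had 3438 and 2309 in KI, 13375 in Tg mouse 4, and 3225 and 6120 in Wt. The highest library was 16.4 times the lowest for Hsph1 and 8.15 times for Dnajb1.

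Of the HSP90 genes, inducible Hsp90aa1 (ENSMUSG00000021270) had 12448 and 8033 in LN KI, 6448 and 18539 in LN Tg, and 10137 and 12360 in LN Wt. In spleen, Hsp90aa1 had 7306 and 5137 in KI, 23289 in Tg mouse 4, and 8567 and 12664 in Wt, so that KI lay wholly below Wt. Constitutive Hsp90ab1 (ENSMUSG00000023944) had 47456 and 32292 in LN KI, 29557 and 63369 in LN Tg, and 45879 and 49865 in LN Wt. In spleen, Hsp90ab1 had 35341 and 30852 in KI, 66840 in Tg mouse 4, and 35645 and 44502 in Wt. Its KI libraries also lay below Wt in spleen, by a narrow margin. The ratio of the highest to the lowest library was 4.53 for Hsp90aa1 and 2.26 for Hsp90ab1, the smallest of the 9.

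The mitochondrial chaperonins were also highest in the libraries of mouse 4. Hspd1 (ENSMUSG00000025980, HSP60) had 3549 and 2872 in LN KI, 2180 and 7050 in LN Tg, and 3098 and 3942 in LN Wt. In spleen, Hspd1 had 2748 and 2356 in KI, 6453 in Tg mouse 4, and 2595 and 3686 in Wt. Hspe1 (ENSMUSG00000073676, HSP10) had 2628 and 1911 in LN KI, 1980 and 4415 in LN Tg, and 2583 and 2662 in LN Wt. In spleen, Hspe1 had 1599 and 1583 in KI, 3905 in Tg mouse 4, and 1750 and 2601 in Wt. For Hspe1 the spleen KI libraries lay below the spleen Wt libraries, whereas for Hspd1 they overlapped. Across the 11 libraries, which share mice and normalisation, the 36 pairs of members had Pearson correlations of log2(value + 1) between 0.806 and 0.989, with a median of 0.94.

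The difference between the 2 mice of a group was next set beside that of all genes, as log2(value + 1) with 1 library on each side and no test. In Tg LN, mouse 4 exceeded mouse 3 for 9 of 9 members, where 50.6% of all genes were higher in mouse 4. Hspa1b was 543-fold and Hspa1a 473-fold higher, and these were the largest and second largest differences of all 10885 genes. Hsph1 at 16.4-fold and Dnajb1 at 8.15-fold ranked 4 and 6, and the other 5 members lay between 2.14-fold (Hsp90ab1) and 3.23-fold (Hspd1). Only 26 reads of Hspa1a and 42 of Hspa1b stood behind the mouse 3 values, against 20644 and 38234 reads in mouse 4, so the size of these folds is less certain than their direction.

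The KI mice differed in the same way, with mouse 5 above mouse 6 for 9 of 9 members in LN, where 52.9% of all genes were higher, and for 9 of 9 in spleen, where 45.1% were. In LN the ratio was 10.4 for Hspa1a, 8.46 for Hspa1b and 1.97 for Dnajb1, and the smallest was 1.24 for Hspd1. In spleen it was 4.89 for Hspa1a and 4.94 for Hspa1b, and the smallest was 1.01 for Hspe1. The order of the 2 KI mice was thus the same in both of their tissues. In Wt spleen, mouse 2 exceeded mouse 1 for 9 of 9 members (53.0% of all genes), by 14.2-fold for Hspa1b and 9.45-fold for Hspa1a. In Wt LN, mouse 2 was above mouse 1 for 7 of 9 (45.9% of all genes), and Hspa1a and Hspa1b were lower, at 0.808 and 0.620 times mouse 1.

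Neutrophil markers moved with some of these spleen values: their 5 genes, all measured, summed to 36661 in spleen Tg mouse 4 and 43809 in spleen Wt mouse 2, but to 1385 and 5112 in spleen KI and 5014 in spleen Wt mouse 1. In LN they summed to 459 and 401 in KI (mice 5 and 6), 55 and 130 in Tg (mice 3 and 4), and 48 and 1559 in Wt (mice 1 and 2). No neutrophil gene was at 0 there. The sum in LN of Tg mouse 4 was below that of 3 other LN libraries. Spleen of Wt mouse 2 had the highest neutrophil sum. The members took 0.685% of the signal in that library and 1.39% in spleen of Tg mouse 4. The part of neutrophils in the member values was not tested. Red cell genes also moved with the members in 4 of the 5 pairs of mice: 5 globin and haem synthesis genes (Hba-a1, Hba-a2, Hbb-bs, Hbb-bt and Alas2) summed to 24399 in spleen of KI mouse 5 and 2527 in spleen of KI mouse 6, and to 1707 in LN of Tg mouse 4 and 515 in LN of Tg mouse 3. In LN they summed to 315 in KI mouse 5 and 170 in KI mouse 6, and to 1510 in Wt mouse 2 and 1153 in Wt mouse 1. In each of these 4 pairs 5 of 5 genes were higher in the mouse named first. In Wt spleen the order was the other way, with sums of 506 in mouse 2 and 978 in mouse 1 and 1 of 5 genes higher in mouse 2, and spleen of Tg mouse 4 had 996. The part of red cells in the member values was not tested. LN reads were 12165371 in Tg mouse 3 and 21067988 in Tg mouse 4; the values are scaled for depth.

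Genes listed here as heat-inducible, and co-chaperones of the same machines, were read for the same pair of LN Tg libraries. Of 15 other heat-inducible genes, 14 were higher in mouse 4 than in mouse 3, with a median log2 difference of 1.44 beside 1.69 for the members and 0.01 for all genes. The largest were Hspb1 (HSP27, a small heat shock protein) at 2.95 and Bag3, an HSP70 co-chaperone, at 2.23, followed by Ahsa2 at 2.07 and the J-domain gene Dnaja1 at 1.91. Among 16 HSP90 co-chaperones 12 were higher, with a median of 0.26, led by Stip1, which links HSP70 to HSP90, at 1.80, Ahsa1 at 1.55 and the immunophilin Fkbp4 at 1.23. HSP70 co-chaperones had 9 of 23 higher and a median of -0.11, with Dnaja4 standing out at 1.53. The examples in these lists were named for their large differences.

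Other stress programmes had smaller medians. Immediate early genes, which respond within minutes to many stimuli including cell dissociation, had 14 of 21 higher in mouse 4 and a median of 0.54. Endoplasmic reticulum chaperones had 12 of 14 higher but a median of 0.11, the cytosolic chaperonin CCT and prefoldin 8 of 14 with a median of 0.07, and the other mitochondrial chaperones and proteases 7 of 13 with a median of 0.20. Oxidative and metal stress genes had 2 of 8 higher and a median of -0.23. The 2 cold-inducible RNA-binding protein genes were both lower in mouse 4, with differences of -1.22 for Cirbp and -0.59 for Rbm3. Of the measured heat shock transcription factor genes, Hsf1 differed by 0.16 and Hsf2 by -0.15. Hsbp1, an HSF1-binding inhibitor listed with them, differed by -0.32.

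**Figure D2:**
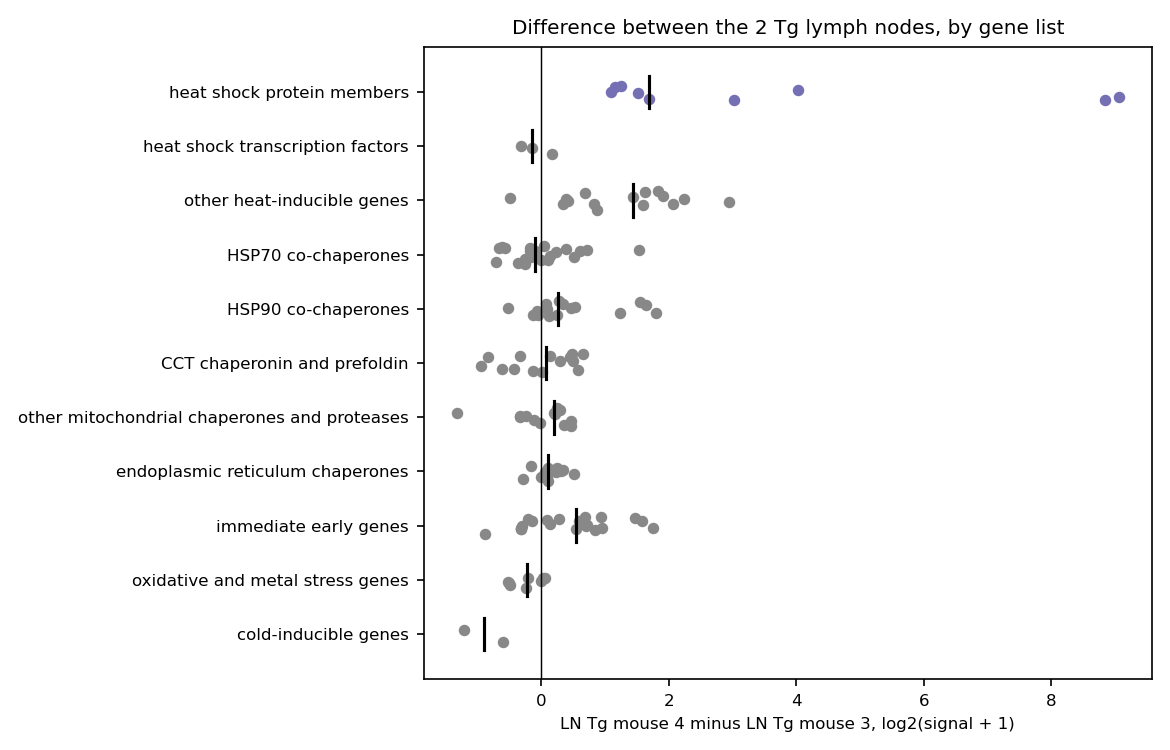
Log2 difference in signal between the LN libraries of Tg mouse 4 and Tg mouse 3 (horizontal axis) for each measured gene of the members and of 10 related lists; each point is 1 gene and the black bar is the median of its list. The 9 members lie between 1.10 and 9.06, the other heat-inducible genes have a median of 1.44, and the other 9 lists have medians between -0.90 and 0.54.

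Differences between genotypes were then tested with limma across all 10885 genes, with the p-value adjusted by the Benjamini-Hochberg method and called under 0.05. The mice of a group are separate animals, but 2 per group give few residual degrees of freedom. The spread of a gene was estimated over all 6 groups together, so the gap between the 2 LN Tg mice enters the error of every comparison. None of the 9 members was called in any of the 9 comparisons. Unadjusted, 4 of 9 members had p under 0.05 in KI minus Tg in spleen, where 2839 of 10885 genes did, and 0 in each of the other 8.

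For KI against Wt in LN, 0 of 9 members were called, where limma called 26.0% of all genes (2833) and 4115 had an unadjusted p under 0.05; edgeR and DESeq2 on the recovered LN reads also called 0 members. All 9 member differences were negative, between -0.45 and -0.01, with a median of -0.23 beside -0.02 for all genes. Libraries of KI lay below those of Wt without overlap for 1 of 9, Hspa8, a pattern that 34.8% of all genes showed. Hspa8 differed by -0.37 ± 0.38 (log2, SE; limma adjusted p = 0.522), or by -0.18 without LN of KI mouse 6 and -0.57 without LN of KI mouse 5. The shared negative sign rested on KI mouse 6: without its LN the median was 0.10 with 7 of 9 positive, and without LN of KI mouse 5 the median was -0.57. With quantile normalisation 3 of 9 were positive.

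For KI against Wt in spleen, 0 of 9 members were called, where 16.8% of all genes (1833) were and 3522 had an unadjusted p under 0.05. The median was -0.42 beside 0.01 for all genes, and 8 of 9 differences were negative. The median was -0.12 without spleen of Wt mouse 2, -0.71 without spleen of Wt mouse 1 and -0.23 without spleen of KI mouse 6. KI lay below Wt without overlap for 4 of 9 members, namely Hspa8, Hsp90aa1, Hsp90ab1 and Hspe1, beside 31.9% of all genes. Hsp90aa1 differed by -0.77 ± 0.55 (limma adjusted p = 0.393), or by -0.48 without spleen of Wt mouse 2. The inducible genes had wider errors: Hspa1a differed by -1.95 ± 3.20 (limma adjusted p = 0.719), an SE larger than the difference, and it ran from -3.57 without spleen of Wt mouse 1 and -3.09 without KI mouse 5 to -0.81 without KI mouse 6 and -0.33 without Wt mouse 2. A difference of the KI effect between LN and spleen was called for 0 of 9 members, where 0.955% of all genes (104) were called and 1584 had an unadjusted p under 0.05. This fit, like that of the Tg effect between tissues below, leaves out the mouse that ties the 2 tissues. With the mouse as a fixed term, 596 genes were called for the KI effect, and 0 of 9 members.

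**Figure D3:**
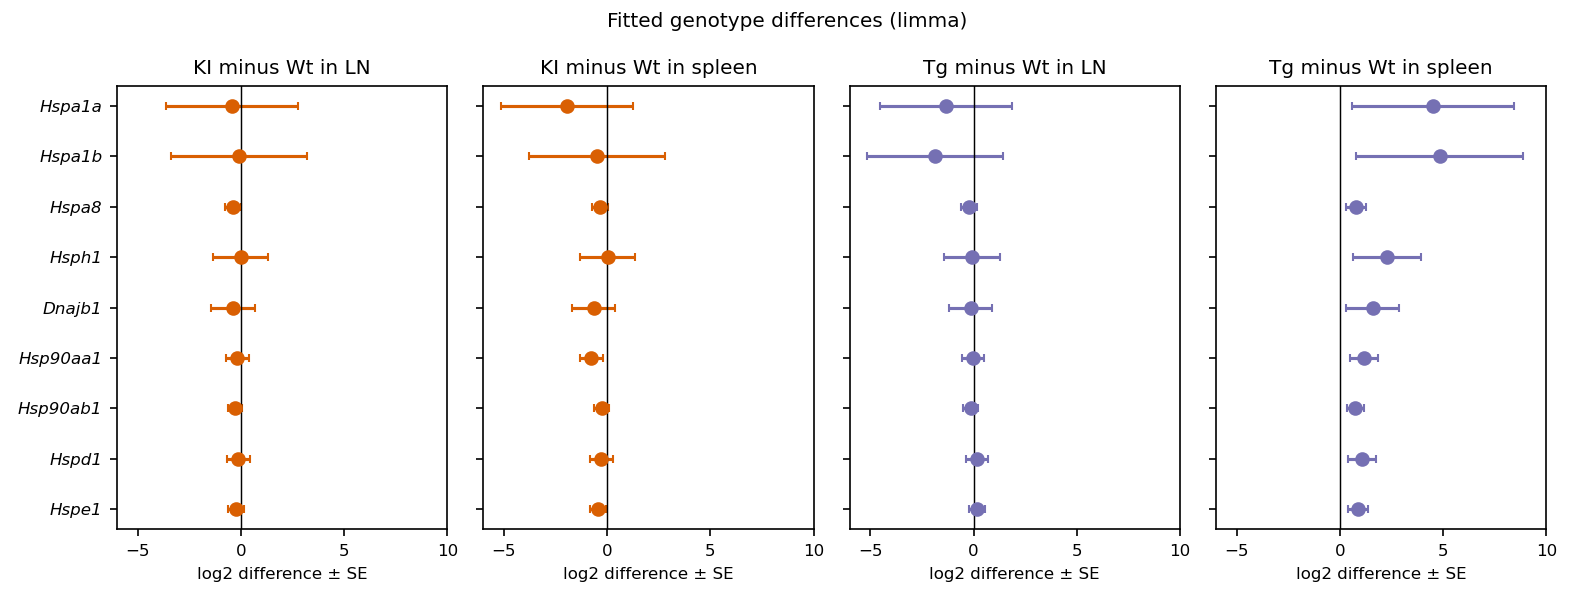
Fitted log2 differences (points) with their standard errors (bars) for the 9 members, for KI minus Wt and Tg minus Wt in each tissue, from limma over all 11 libraries. Most bars of KI minus Wt span 0, those of Hsp90aa1 and Hspe1 in spleen lie below it, and the errors of Hspa1a and Hspa1b exceed 3 log2 units; all 9 Tg minus Wt differences in spleen are positive, from 1 Tg library.

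For Tg against Wt in LN, 0 of 9 members and 0% of all genes were called by limma, with 532 genes at an unadjusted p under 0.05. Libraries overlapped for all 9 members, since mouse 4 lay above the Wt pair and mouse 3 below it. Over all genes, 12.7% had both Tg libraries above Wt and 14.6% had both below. Hspa1b differed by -1.86 ± 3.30 (limma adjusted p = 0.987) and Hsph1 by -0.06 ± 1.35 (limma adjusted p = 0.999). The sign rested on mouse 3: without it Hspa1b was 2.67 and the member median 1.01, and without mouse 4 they were -6.39 and -0.85. Hsph1 was 1.96 without mouse 3 and 0.35 without LN of Wt mouse 2. On the recovered reads, where group means are not taken on the log scale, Hspa1b was 1.65 and Hsph1 0.99 by edgeR, of the opposite sign, and edgeR called 0 genes and DESeq2 28, none of them a member.

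For Tg against Wt in spleen, 0 of 9 members and 0% of all genes were called, with 164 genes at an unadjusted p under 0.05 and the spread of the single Tg library taken from the other groups. The Tg library was above both Wt libraries for 9 of 9 members, which 32.3% of all genes showed. The median difference was 1.16 beside 0.00 for all genes. Hspa1b differed by 4.84 ± 4.04 (limma adjusted p = 1) and Hsph1 by 2.30 ± 1.65 (limma adjusted p = 1). The Tg effect was lower in LN than in spleen for 9 of 9 members in the fit, by a median of -1.20, but 0 were called and 0% of all genes were, with 200 at an unadjusted p under 0.05; without LN of Tg mouse 3, the median was -0.35.

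KI and Tg were also set against each other, with the same KI and Tg libraries as above. In LN, 0 of 9 members were called, beside 26.7% of all genes, and Hspe1 differed by -0.40 ± 0.39 (limma adjusted p = 0.504), or 0.18 without LN of Tg mouse 4. Without LN of Tg mouse 3, 3 members were called lower, Hspa8, Hspd1 and Hspe1, where 10.4% of all genes were called lower. In spleen, KI lay below Tg for 9 of 9 members, beside 40.9% of all genes, and 0 were called, beside 7.71%. Hsp90aa1 differed by -1.93 ± 0.67 (limma adjusted p = 0.143) and Hspa1a by -6.45 ± 3.92 (limma adjusted p = 0.372). When the spread was estimated from the 5 spleen libraries alone, 4 members were called lower, Hspa8, Hsp90ab1, Hspd1 and Hspe1, where 7.56% of all genes were. These calls rest on 1 Tg library, that of mouse 4.

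Inside single mice the members were mostly higher in LN than in spleen. LN exceeded spleen for 9 of 9 members in KI mouse 5 (54.7% of all genes), 9 of 9 in KI mouse 6 (48.5%), 4 of 9 in Tg mouse 4 (49.7%), 9 of 9 in Wt mouse 1 (54.2%) and 6 of 9 in Wt mouse 2 (48.6%). Hspa1b was 6.53-fold higher in LN of KI mouse 5, 3.81-fold in KI mouse 6 and 18.2-fold in Wt mouse 1. In Tg mouse 4 it was 0.849 times and in Wt mouse 2 0.798 times its spleen level, so the tissue difference of the inducible genes was not shared by all mice. Dnajb1, Hsph1, Hspd1 and Hspe1 were higher in LN in 5 of 5 mice, Dnajb1 by 1.97-fold in KI mouse 5, 1.49-fold in KI mouse 6, 1.22-fold in Tg mouse 4, 1.74-fold in Wt mouse 1 and 1.16-fold in Wt mouse 2. Some of these differences were small, with 1.07-fold for Hspd1 and 1.02-fold for Hspe1 in Wt mouse 2. The share of all genes higher in LN in all 5 mice was not counted, so whether this pattern is unusual cannot be said.

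**Figure D4:**
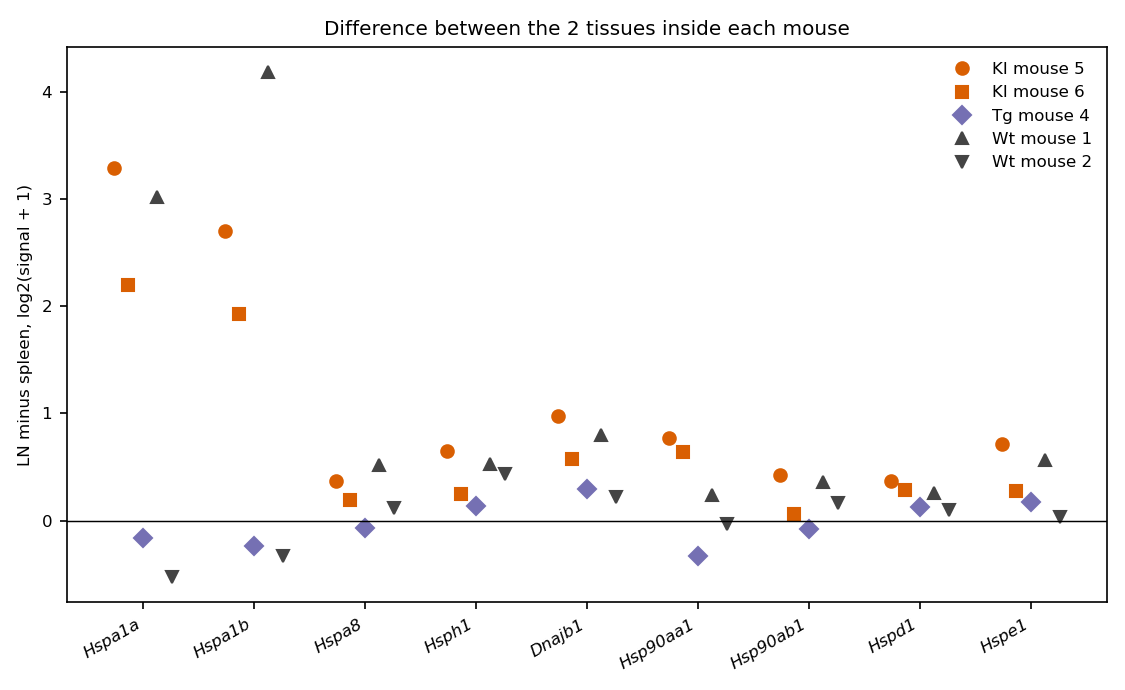
LN minus spleen difference of log2(signal + 1) inside each of the 5 mice with both tissues (vertical axis) for the 9 members; each symbol is 1 mouse. Most symbols lie above 0, those of Dnajb1, Hsph1, Hspd1 and Hspe1 in all 5 mice, and Hspa1a and Hspa1b span the widest range, with Tg mouse 4 and Wt mouse 2 below 0.

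With genotype and tissue as additive terms and the mouse left out, LN minus spleen called 0 of 9 members, where limma called 15.1% of all genes (1645) and 2934 had an unadjusted p under 0.05. Dnajb1 differed by 0.18 ± 0.62 (limma adjusted p = 0.911), Hsph1 by -0.12 ± 0.79 (limma adjusted p = 0.953) and Hspe1 by 0.20 ± 0.24 (limma adjusted p = 0.677). With the mouse as a replicate block, which pairs the tissues of 1 animal and leaves the lone LN library of mouse 3 without weight, 2 of 9 members were called higher in LN. These were Dnajb1 at 0.57 (limma adjusted p = 0.0154) and Hsph1 at 0.40 (limma adjusted p = 0.0202), where 5.51% of all genes were called higher. With the mouse as a random term 0 of 9 were called, and Dnajb1 was 0.11 (limma adjusted p = 0.956) and Hsph1 -0.21 (limma adjusted p = 0.929). Hsph1 thus changed sign between the fit with the mouse as a replicate block and the other two, and without LN of Tg mouse 3 it was also 0.40 in the fit without the block. Without the block Hsph1 was 0.47 when spleen of Tg mouse 4 was left out, and Dnajb1 was -0.049 without LN of KI mouse 5, -0.033 without LN of Tg mouse 4 and -0.003 without spleen of Wt mouse 1.

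The wider chaperone network was read against the same background for KI and Wt, with 26.0% of all genes called in LN and 16.8% in spleen. Of 15 other heat-inducible genes, 1 rose and 2 fell in KI LN and 0 rose and 3 fell in KI spleen, with medians of -0.15 and -0.31. The 1 that rose was Hspa2, a testis-rich HSP70 family gene, by 1.02 ± 0.22 in KI LN (limma adjusted p = 0.00646). Unlike the other 14 genes of this list, Hspa2 was lower in LN of Tg mouse 4 than of Tg mouse 3, at -0.496. Zfand2a, a zinc finger protein induced by arsenite and heat, fell by 1.28 ± 0.36 in KI LN (limma adjusted p = 0.0382) and fell by 1.60 ± 0.36 in KI spleen (limma adjusted p = 0.0261). Ier5, which modulates HSF1, fell by 0.60 ± 0.15 in KI LN and fell by 0.56 ± 0.15 in KI spleen (limma adjusted p = 0.013 in LN and 0.0279 in spleen), and polyubiquitin Ubb fell by 0.44 ± 0.13 in KI spleen (limma adjusted p = 0.0383).

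Few co-chaperones passed the test. In KI LN, 1 of 23 HSP70 co-chaperones was called, Hspbp1, a nucleotide exchange factor, at -0.41 ± 0.13 (limma adjusted p = 0.0329), and 1 of 16 HSP90 co-chaperones, the kinase-client adaptor Cdc37, at -0.56 ± 0.12 (limma adjusted p = 0.00535). In KI spleen neither list had a call. The chaperonin subunit gene Cct2, which encodes a ring member of CCT, was the only call of 14 CCT and prefoldin genes in either tissue, at -0.39 ± 0.10 in KI LN and -0.44 ± 0.10 in KI spleen (limma adjusted p = 0.014 in LN and 0.0136 in spleen). Among 13 other mitochondrial chaperones and proteases, 0 were called in KI LN, and in KI spleen the HSP70 co-factor Grpel1 was lower at -0.46 ± 0.14 and the J-domain gene Dnaja3 higher at 0.46 ± 0.14 (limma adjusted p = 0.0416 for Grpel1 and 0.0466 for Dnaja3). None of Hsf1, Hsf2 and Hsbp1 was called between KI and Wt, and Hsf1 differed by -0.26 ± 0.10 in LN (limma adjusted p = 0.0807).

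Chaperones of the endoplasmic reticulum and immediate early genes gave the largest counts. Of 14 endoplasmic reticulum chaperones, 10 rose and 0 fell in KI LN (median 0.79), and 8 rose and 1 fell in KI spleen (median 0.44). Hsp90b1, the HSP90 of that compartment, rose by 1.60 ± 0.17 in KI LN (limma adjusted p = 0.000125), whereas the cytosolic Hsp90aa1 and Hsp90ab1 were not called. Plasma cell markers stood beside these values: their 6 genes summed to 140135 and 145379 in LN KI, against 5233 and 6669 in LN Wt, and to 121204 and 72796 in spleen KI, against 16142 and 16242 in spleen Wt. Their part in the endoplasmic reticulum values was not tested.

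Immediate early genes had 1 higher and 10 lower of 21 in KI LN (median -0.61) and 0 higher and 16 lower of 21 in KI spleen (median -1.87), where 26.0% of all genes were called in LN and 16.8% in spleen. The stress factor Atf3 fell by 3.57 ± 0.51 in KI LN (limma adjusted p = 0.00321). In KI spleen Atf3 fell by 6.24 ± 0.51 (limma adjusted p = 0.000889). The 21 genes summed to 93099 and 67498 in LN KI, against 116454 and 172729 in LN Wt, and to 75611 and 72917 in spleen KI, against 251798 and 201906 in spleen Wt. T cell markers were also lower in KI, with 8 of 8 called in LN (median -0.94) and 6 of 8 in spleen (median -0.98). These 8 genes summed to 29171 and 36811 in LN KI, against 67040 and 62922 in LN Wt, and to 16364 and 17610 in spleen KI, against 32141 and 34554 in spleen Wt. Macrophage markers had 3 of 6 called lower in KI LN (median -1.13) and 0 of 6 in KI spleen. The part of these cells in the immediate early values was not tested. The immediate early genes did not share the order of libraries of the members: in spleen of Wt mouse 1 their median lay 1.003 above the mean over libraries while that of the members lay at -0.44, and in LN of KI mouse 5 they lay at -0.55 and the members at 0.27.

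Of 8 oxidative and metal stress genes, 0 rose and 2 fell in KI LN and 0 rose and 1 fell in KI spleen, beside the same 26.0% and 16.8% of all genes; thioredoxin reductase Txnrd1 fell by 0.67 ± 0.12 in KI LN (limma adjusted p = 0.00288). Of the 2 cold-inducible genes, Rbm3 fell by 0.75 ± 0.17 in KI spleen (limma adjusted p = 0.0152) and neither was called in LN. Between tissues, where 0 members and 15.1% of all genes were called, Hsf2, a second heat shock factor, was higher in LN by 0.35 ± 0.10 (limma adjusted p = 0.0407). Ier5 was lower in LN at -0.49 ± 0.09 (limma adjusted p = 0.00217), as were 4 of 21 immediate early genes, 2 of 8 oxidative and metal stress genes and 1 of 14 endoplasmic reticulum chaperones. Haem oxygenase Hmox1, which red pulp macrophages of the spleen use to break down haem, was lower in LN at -4.05 ± 0.22 (limma adjusted p = 2.86e-06). The red pulp macrophage markers, 3 genes, summed to 76 to 317 in the LN libraries and 1642 to 3346 in the spleen libraries.

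**Figure D5:**
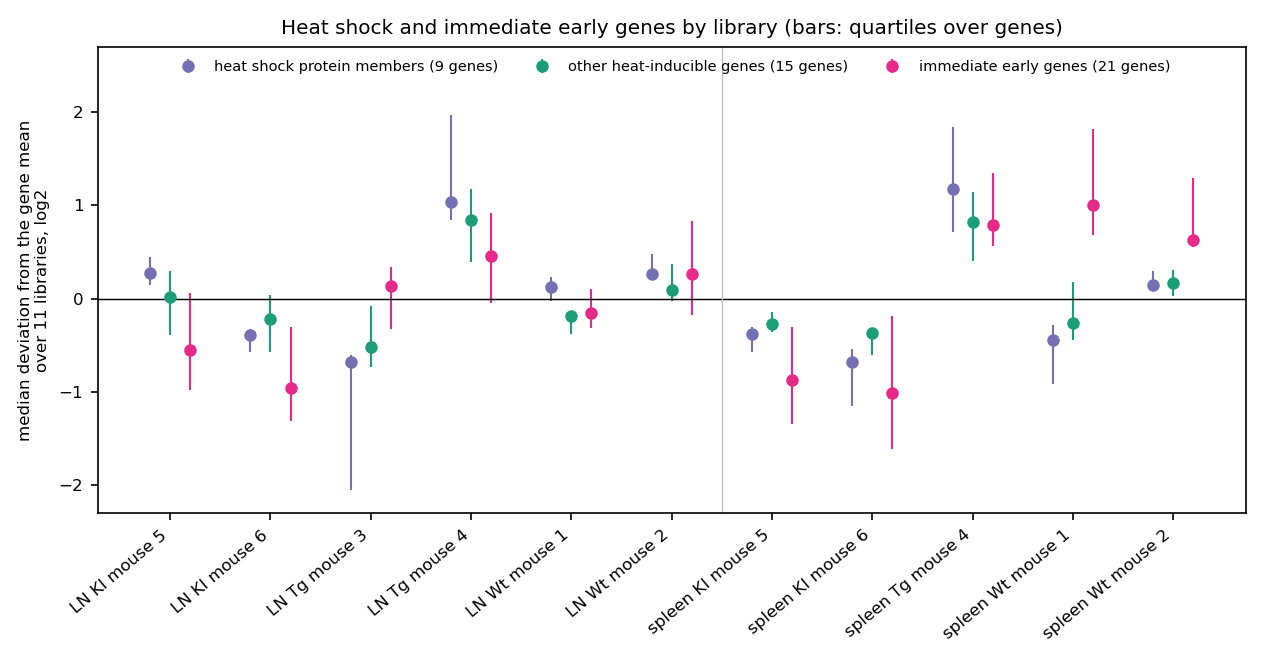
Median deviation from each gene's mean over the 11 libraries (log2, vertical axis) for the 9 members, 15 other heat-inducible genes and 21 immediate early genes in each library; bars span the quartiles over genes and are not errors over mice. The members and the other heat-inducible genes are highest in the 2 libraries of Tg mouse 4, whereas the immediate early genes are lowest in the 4 KI libraries and highest in spleen of Wt mouse 1.

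Outside the members, the 5 genes most like Hspa1b over the 11 libraries by Pearson correlation of log2(value + 1) were Dnaja1 (0.935), Chordc1 (0.934), 1110038B12Rik (0.927), Stip1 (0.915) and Jmjd6 (0.896). Dnaja1 had 9417 and 6850 in LN KI, 4107 and 15389 in LN Tg, 7440 and 10548 in LN Wt, 7440 and 5339 in spleen KI, 17791 in spleen Tg, and 5981 and 10066 in spleen Wt, so it too was highest in the libraries of mouse 4. 1110038B12Rik, a long non-coding RNA gene, lies on chromosome 17 beside Hspa1b with 1 pseudogene between them in RefSeq, and its highest library was 1.82 times its lowest. For Hspd1 the 5 were Dnaja1 (0.967), Dedd2 (0.949), Ccdc117 (0.942), Jmjd6 (0.940) and Umps (0.928). Dnaja1 and Jmjd6 stood in both sets of 5.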

How the data were processed

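The deposited table holds a normalised signal per gene and library, which the authors made from read counts with a single scaling factor for each library, as read from the values. Per the submitters' processing notes, tools were FastQC 0.11.5, STAR 2.5, featureCounts, Subread 1.4.6 and DESeq2 1.26.0, with build GRCm39. Annotation release, strand and handling of multiply mapped reads were not given in any source used. The highest value of a gene was 109.3 or more for all 10885 genes, so weaker genes could not be examined, and 0 value columns were left unmapped.

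Group means of the 6 groups of tissue and genotype were fitted over all 11 libraries with limma 3.58.1 (R 4.3.3, trend and robust moderation) on log2(value + 1), which understates changes of low values. Tissue was tested with genotype as an additive term. P-values were adjusted by Benjamini-Hochberg over all genes and called under 0.05; the code was tested on simulated data. The members and lists were chosen with earlier results of these data known. All 9 members were reported; of each related list, up to 3 called genes with the smallest p, or up to 2 uncalled ones, were eligible for naming between KI and Wt and between tissues, and some of them are named. In LN, 100% of values were whole reads within 0.05, so edgeR 4.0.16 and DESeq2 1.42.0 were run on those reads; limma, edgeR and DESeq2 called 2833, 2059 and 2634 genes for KI minus Wt. In spleen 100% of values were also whole reads within 0.05, but only LN reads were passed to the count tests.

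Subject labels tie spleen and LN to 1 animal, so numbers pair tissues. Deviations from the group mean correlated between tissues at 0.9 in KI and 0.403 in Wt over all genes. Genotypes share no animal. Depth was 11128568 to 24110325 reads. Alternatives were other pseudocounts (0.1 and 5), a mean of at least 200, other scalings, single-tissue fits, mouse as a block, and omission of libraries and of mice.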

Additional observations from a re-analysis of the deposited data

Results flagged for a closer look

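The tissue difference of 5 members had the opposite sign in Tg mouse 4 from both KI mice, or from both Wt mice. These rest on 1 Tg mouse against 2 mice of the other genotype, and the difference was not tested for Tg against KI. Against Wt, the fit called the Tg effect different between tissues for 0 of 9 members. LN minus spleen on the log2 scale was -0.16 in Tg mouse 4 for Hspa1a, against a mean of 2.75 in KI. For Hspa1b it was -0.24 in Tg mouse 4 and 2.32 in KI. Hspa8 had -0.073 in Tg mouse 4, against 0.28 in KI and 0.32 in Wt. Hsp90aa1 had -0.33 in Tg mouse 4 and 0.71 in KI. The negative sign of Hspa1a, Hspa1b and Hsp90aa1 was not particular to Tg. In Wt mouse 2, Hspa1a was -0.526, Hspa1b -0.326 and Hsp90aa1 -0.035. In Wt mouse 1, Hspa1a was 3.018, Hspa1b 4.185 and Hsp90aa1 0.243. Hsp90ab1 had -0.077 in Tg mouse 4, against 0.25 in KI and 0.26 in Wt. No group held 4 libraries, so single libraries were not tested for standing apart.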

How the results depend on the processing

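The count of members called stayed at 0 in every comparison under the pseudocounts, the filter, both scalings and the random mouse term, and in the 3 LN comparisons under edgeR and DESeq2. It moved to 4 (all lower) for KI minus Tg in spleen in the fit of the spleen alone. For LN minus spleen it moved to 2 (both higher) with the mouse as a fixed replicate block. With that replicate block Dnajb1 was 0.57 and Hsph1 0.40, with Hsph1 of opposite sign; neither interaction gained a member, and the replicate block as a random term, at a consensus correlation of 0.0168 over the 6 group means and -0.128 over tissue and genotype, changed no call. Over the omission of libraries and mice the count for KI minus Tg in LN ranged from 0 to 3, with 3 only without Tg mouse 3, and the other 8 comparisons kept 0 wherever a fit was possible. Of the 81 member differences, 43 changed sign under at least 1 alternative. Among those given with a test in the report, over the same omissions, differences that changed sign ranged from -6.39 to 2.67 for Hspa1b and -2.08 to 1.96 for Hsph1 in Tg minus Wt in LN, -0.98 to 0.18 for Hspe1 in KI minus Tg in LN, -0.049 to 0.64 for Dnajb1 and -0.41 to 0.47 for Hsph1 in LN minus spleen. In Tg minus Wt in LN the sign was also opposite with edgeR (Hspa1b 1.65, Hsph1 0.99) and DESeq2 (Hspa1b 1.66, Hsph1 0.995). The count methods do not take group means on the log scale. Off that scale, the mean signal of Hspa1b was 16160 in LN Tg and 5199 in LN Wt. Whether this accounts for the opposite sign was not tested.

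Each group held 1 or 2 libraries, which limits the precision of every genotype difference, and low reads limit Hspa1a and Hspa1b in LN of Tg mouse 3.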
